A study of Mus musculus with 2 samples.

Results

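Microproteins are proteins of fewer than about 100 residues made from their own short reading frames. The set described here comprises the genes whose longest coding sequence among protein-coding transcripts was 1 to 300 nucleotides, that is up to 99 residues and a stop codon, and whose best transcript had 20 or more footprint counts summed over both libraries. Symbols beginning with the names of well-known families of short proteins were left out (cytosolic and mitochondrial ribosomal proteins, respiratory chain, ATP synthase and vacuolar proton pump subunits, genes with the mitochondrial prefix mt-, thymosins, G protein gamma subunits, Sm and Lsm proteins, translocon, dynein, signal peptidase, signal recognition particle and Ost4 subunits, and selenoproteins named Sep). The rule found 74 genes among the 45578 genes of the table. The counts chose the members, so their levels are given as a description with no test. The short coding length is likewise part of the rule.

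The data are RiboLace libraries, in which beads carrying a puromycin analogue pull down ribosomes engaged in translation and the RNA fragments they protect are sequenced. The material was brain of mice with the genotype Smn+/-; SMN2tg/0 on a congenic FVB background, euthanised at postnatal day 5. These are the control animals of a spinal muscular atrophy strain: they are heterozygous for the mouse Smn gene and carry the human SMN2 transgene, so that they are not wild type. There was 1 group of 2 biological replicates and no other condition. The labels describe each library as made from a control mouse brain and as a biological replicate. Without a second condition, only the libraries can be set against each other.

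A short reading frame gives a ribosome little room: initiation and termination take place within a small distance of each other, and few ribosomes fit on the message at the same time. Microproteins act mostly by binding a larger partner. In neurons they include calmodulin-binding proteins and inhibitors of protein kinases, and in all cells they include small chaperones of mitochondrial import, ubiquitin-like modifiers and single-pass membrane proteins that tune pumps and channels. Several of the messages carry untranslated regions much longer than the frame itself.

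Summed over genes there were 343552 counts in replicate 1 and 120282 in replicate 2, a ratio of 2.86, and the members drew 3119 and 1104 of them. Levels are given in CPM, counts scaled to the effective library size, and for comparison between genes as CPM per 100 nucleotides of coding sequence. In replicate 1 a single count was worth 2.71 CPM and in replicate 2 it was worth 8.93 CPM. The 5 neuronal markers checked had 2094 and 753 counts. Of the markers of liver and muscle, Alb, Afp, Apoa1, Apoa2, Ckm, Mylpf and Tnnt3 had none in either library. The remaining liver marker, Ttr, which is also a gene of the choroid plexus, had 395 and 153 counts, and the remaining muscle markers, Acta1 and Myh3, had 72 and 24 together. The 5 erythroid markers took 0.410% and 0.385% of gene counts. In whole tissue, fewer cells of a type and less RNA per cell cannot be told apart.

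For 2 groups of members the sequence before the gene start is shown here from RefSeq on build GRCm38.p6. Proteins are not shown. The metallothioneins Mt1, Mt2 and Mt3 lie in one cluster on chromosome 8, and metal-responsive transcription of this family acts through metal response elements. Capitals mark every copy of TGCNCNC, the core of that element, on either strand in the 250 bases before the annotated start; no other motif was searched in them and copies may overlap.
Mt1, chr8:94178839-94179088, + strand: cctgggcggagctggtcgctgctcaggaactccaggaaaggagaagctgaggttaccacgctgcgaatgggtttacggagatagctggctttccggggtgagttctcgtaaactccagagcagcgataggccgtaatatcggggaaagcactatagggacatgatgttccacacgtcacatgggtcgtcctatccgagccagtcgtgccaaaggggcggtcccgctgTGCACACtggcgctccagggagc
Mt2, chr8:94172368-94172617, + strand: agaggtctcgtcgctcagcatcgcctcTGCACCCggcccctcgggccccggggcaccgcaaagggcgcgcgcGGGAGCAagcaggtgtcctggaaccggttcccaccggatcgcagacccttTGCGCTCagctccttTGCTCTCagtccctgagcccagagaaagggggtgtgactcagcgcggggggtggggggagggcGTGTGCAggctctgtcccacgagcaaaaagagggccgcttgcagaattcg
Mt3, chr8:94152357-94152606, + strand: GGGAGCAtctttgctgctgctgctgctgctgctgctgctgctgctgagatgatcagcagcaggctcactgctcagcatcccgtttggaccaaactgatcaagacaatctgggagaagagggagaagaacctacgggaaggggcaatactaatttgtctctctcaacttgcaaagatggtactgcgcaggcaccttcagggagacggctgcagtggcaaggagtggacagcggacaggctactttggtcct
The window of Mt2 held 5 copies, a number reached by 0.344% of the 32851 promoter windows of this length in the table, while those of Mt1 and Mt3 held 1 each, as did or exceeded 44.4% of all windows. A match is a run of letters and not a binding site, and the annotated starts set where the windows fall. Bases after the annotated start were not searched, and the Mt1 transcript has an annotated 5′ untranslated region of 222 nucleotides. The 1 copy of Mt1 therefore describes this window alone. Whether its promoter holds further copies outside the window was not tested.

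Snurf is the first reading frame of a message that also encodes the splicing protein SmN from the Snrpn frame, and the locus is imprinted. In RefSeq the start site of Snurf was the same as 1 of the 4 start sites of Snrpn. Capitals mark CG dinucleotides, the target of DNA methylation, in the 250 bases before that shared start.
Snurf and Snrpn, chr7:60005200-60005449, - strand: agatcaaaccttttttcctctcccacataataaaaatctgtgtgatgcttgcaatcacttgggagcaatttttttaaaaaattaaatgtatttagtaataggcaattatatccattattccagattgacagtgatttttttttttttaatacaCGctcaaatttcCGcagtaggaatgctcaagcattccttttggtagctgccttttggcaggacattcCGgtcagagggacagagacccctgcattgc
This window held 3 CG dinucleotides, a number that 71.0% of all windows reached or exceeded. The value describes this window alone, and bases after the start were not searched. The counts of the 2 genes are given below beside each other, because a fragment from the common exons may have been counted for either or both.

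The members encoded 25 to 99 residues, with a median of 77.5. They are a minority of the annotated short genes: 614 genes outside the left-out families had a coding sequence of 1 to 300 nucleotides, of which 395 had no count, 145 had 1 to 19 counts and 74 reached 20. That is 12.1% of them, against 56.8% of the 74 short genes of the left-out families. With the families included, 16.9% of the 688 genes of up to 300 nucleotides reached it, the value to set beside the longer classes, from which no family was removed. Of coding genes of 301 to 600 nucleotides 20.0% reached the threshold, of those of 601 to 1200 nucleotides 14.3%, of those of 1201 to 2400 nucleotides 21.0%, and of longer ones 30.8%. At the threshold stood Smim14 and Gm10282 with 18 and 2 counts in replicates 1 and 2 and Manbal with 16 and 4. Just below it were Anapc13 with 16 and 3, 1500009C09Rik with 15 and 4 and 1500011B03Rik with 14 and 5. At the limit of length, Cxcl14 and Smim14 with 300 nucleotides and Rnasek with 297 were inside, and Eny2, Psenen and Ptms with 306 nucleotides each were outside. Ptms, which encodes parathymosin, had 182 and 84 counts and would have ranked among the most abundant members.

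Few members carried many counts. Only 10 of the 74 had 100 or more in sum, 20 others had 50 to 99, and 44 had 20 to 49. Those 10 held 37.8% of the members' counts. In replicate 2, 40 members had fewer than 10 counts. The share of all gene counts taken by the members was 0.908% in replicate 1, with a 95% Wilson interval of 0.877% to 0.940%. It was 0.918% in replicate 2, with limits of 0.865% and 0.973%. The mean was 0.913% ± 0.00705 (SD, n = 2). The intervals cover counting error only, since PCR copies are not independent molecules and a fragment may have been counted for more than 1 transcript.

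**Figure D1:**
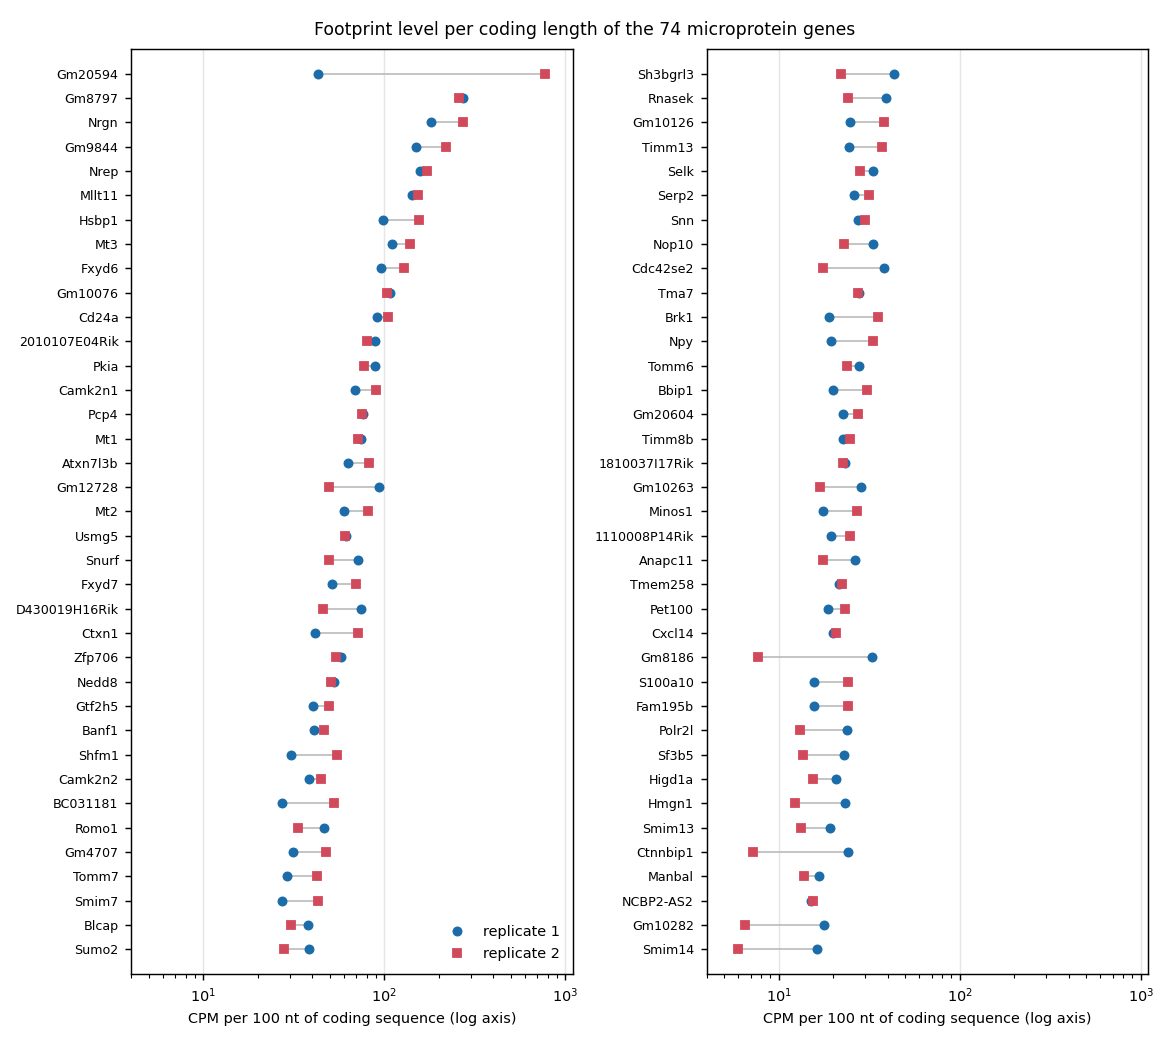
Footprint level of each of the 74 microprotein genes in CPM per 100 nucleotides of coding sequence (log axis), ordered by the mean over the replicates; circles are replicate 1, squares replicate 2, and the grey line joins them. Values run from 11.1 for Smim14 to 409 for Gm20594, whose replicates stand apart at 42.8 and 775. For Gm12728, Gm4707 and Minos1 the counts are those of a transcript with no annotated coding sequence.

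Per coding length, the median member stood at 33.1 CPM per 100 nucleotides in replicate 1 and 34.4 in replicate 2, or 33.7 ± 0.922 (SD, n = 2). The order from the highest to the lowest member spanned a factor of 36.8. Since every gene had to reach the same 20 counts, a shorter frame needs a higher density to be seen. The median count in sum was 37.5 for the members, 47 for coding genes of 301 to 600 nucleotides and 37 for those over 2400. The corresponding densities of 33.7, 21.9 and 2.09 CPM per 100 nucleotides (means of the replicates' medians) therefore follow the lengths, and no difference in translation is read from them. The 42 genes of the left-out families stood at 54.8 ± 3.33 (SD, n = 2).

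Neuronal regulators of calmodulin and protein kinases held the highest median density of the role lists with more than 1 member. Of 10 listed genes 7 were short and 5 were members: Nrgn, Pkia, Camk2n1, Pcp4 and Camk2n2. Their median was 79.5 CPM per 100 coding nucleotides, over a range of 41.5 to 226. Nrgn (ENSMUSG00000053310), neurogranin, the postsynaptic protein that holds calmodulin when calcium is low, encodes 78 residues and had 158 counts in replicate 1 and 72 in replicate 2. Its level was 428 CPM in replicate 1 and 643 CPM in replicate 2, a mean of 536 ± 152 (SD, n = 2), second among all members. Replicate 2 was higher by a log2 ratio of 0.59 (counting SE 0.205), which did not pass the test described below (adjusted exact binomial p = 0.104). It passed only where the counts of isoforms were summed, a setting at which 7.23% of all genes tested passed.

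Pcp4, another calmodulin-binding protein, of 62 residues, had 53 and 16 counts, which is 144 and 143 CPM, or 76.0 and 75.6 CPM per 100 coding nucleotides. Pkia, the alpha inhibitor of cyclic AMP-dependent protein kinase, had 76 and 20 counts. Camk2n1 had 60 and 24 counts and Camk2n2 34 and 12. These 2 genes encode inhibitors of calcium/calmodulin-dependent kinase II, of 78 and 79 residues. Camk2n1 stood at 68.6 and 90.4 CPM per 100 coding nucleotides in replicates 1 and 2, above Camk2n2 at 38.4 and 44.6 in both libraries.

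The kinase subunits that Camk2n1 and Camk2n2 inhibit are given as counts beside them, having been chosen after the values were seen. Camk2a had 70 and 20 counts and Camk2b 80 and 20, against 60 and 24 for Camk2n1 and 34 and 12 for Camk2n2. The frames of the subunits are several times longer, and the threshold of 20 counts sets a floor under the density of a short member, so no order per coding length is read between an inhibitor and its kinase.

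Metallothioneins, small cysteine-rich proteins that bind zinc and copper, were all present in brain apart from the epithelial Mt4, which had no count in either library. Mt3, the form best known from brain, encodes 68 residues and had 84 and 32 counts, or 110 and 138 CPM per 100 coding nucleotides. Mt1 had 51 and 15 counts, or 74.3 and 72.0 on that scale, and Mt2 had 41 and 17, or 59.7 and 81.6. Mt3 was higher than both in each library, and Mt1 and Mt2 changed places between the libraries. Of the 5 short genes in the metal-binding list, these 3 were members.

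Among short membrane proteins, 8 of the 23 short listed genes were members. Fxyd6, a regulator of the sodium pump, encodes 94 residues and had 101 and 41 counts, at 96.0 and 128 CPM per 100 coding nucleotides. Its relative Fxyd7 had 46 and 19 counts and stood at 51.3 and 69.8, below Fxyd6 in both libraries. The other 6 (Selk, Smim7, Snn, Tmem258, Smim13 and Smim14) had 20 to 44 counts in sum.

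Further membrane proteins were grouped after the values were seen. Cd24a, a mucin-like surface glycoprotein of immature neurons anchored by a lipid, had 78 and 27 counts and stood at 91.5 and 104 CPM per 100 coding nucleotides. Ctxn1, cortexin, a neuronal membrane protein, had 38 and 20 counts. Rnasek, Blcap, Serp2 and Manbal had 20 to 51 counts in sum.

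Mitochondrial import and inner membrane proteins were the most numerous role list, with 10 members of 22 short genes. Their median density was 28.3 CPM per 100 coding nucleotides, over a range of 18.1 to 84.8. The highest was 2010107E04Rik, a proteolipid associated with ATP synthase, with 58 and 16 counts at 88.8 and 80.7 CPM per 100 coding nucleotides. Usmg5, of the same complex, had 40 and 12 counts at 61.2 and 60.5. Both encode 58 residues, and 2010107E04Rik was higher in both libraries. Next came Romo1, an inner membrane protein that modulates reactive oxygen species, with 41 and 9 counts. Timm13 and Timm8b, chaperones of the intermembrane space, had 26 and 12 and 21 and 7 counts. Tomm7 and Tomm6, small subunits of the outer membrane translocase, had 18 and 8 and 23 and 6. Higd1a, Minos1 and Pet100 had 22 to 27 counts in sum.

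**Figure D2:**
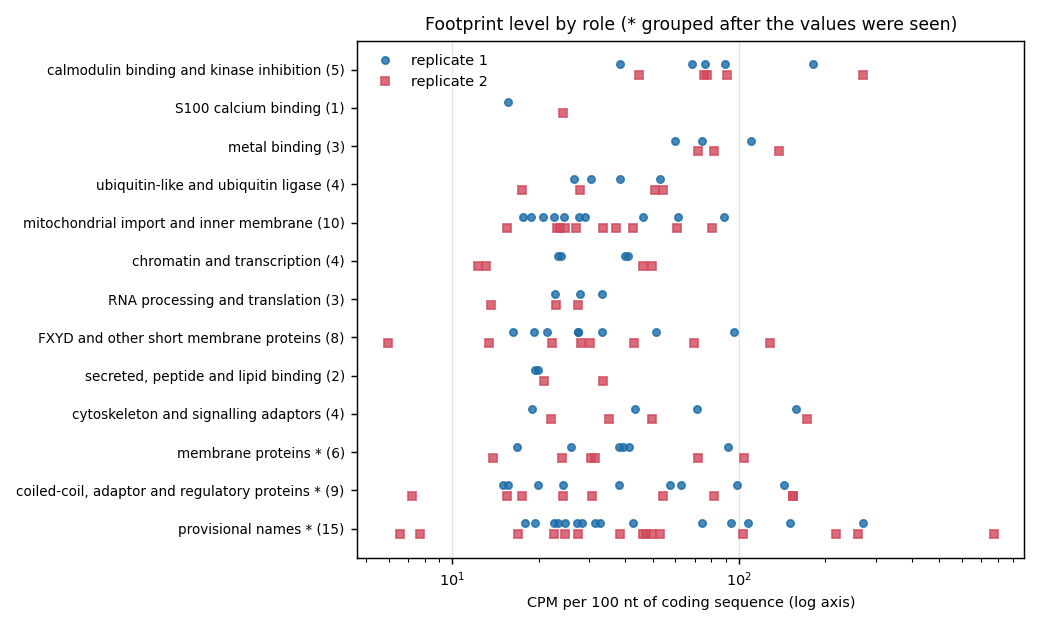
Footprint level of the members in CPM per 100 coding nucleotides (log axis) by role, with the number of members in brackets; circles are replicate 1 and squares replicate 2, and an asterisk marks groups formed after the values were seen. The median density was 79.5 for calmodulin binding and kinase inhibition, 73.2 for metal binding and 28.3 for mitochondrial import and inner membrane.

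Of the ubiquitin-like proteins and ligase subunits, 4 of 10 short genes were members. Nedd8, the modifier of cullins, had 48 and 14 counts at 52.9 and 50.8 CPM per 100 coding nucleotides. Sumo2, a modifier of nuclear proteins, had 41 and 9 at 38.6 and 27.9, below Nedd8 in both libraries. Shfm1, a small proteasome subunit, had 24 and 13 counts, and Anapc11, the RING subunit of the anaphase-promoting complex, had 25 and 5.

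Chromatin and transcription proteins gave 4 members of 7 short genes. Banf1, which bridges DNA at the nuclear envelope, had 41 and 14 counts, and Gtf2h5, a subunit of transcription factor TFIIH, had 32 and 12. Hmgn1, a nucleosome-binding protein, had 25 and 4, and Polr2l, a subunit shared by the RNA polymerases, had 18 and 3. In RNA processing and translation, 3 of 5 short genes were members. Nop10, of the guide ribonucleoproteins that modify RNA, had 24 and 5 counts, Tma7 had 20 and 6, and the splicing factor subunit Sf3b5 had 22 and 4.

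Secreted and S100 proteins were at the low end. Npy, the precursor of neuropeptide Y, had 21 and 11 counts at 19.4 and 33.4 CPM per 100 coding nucleotides. The chemokine Cxcl14 had 22 and 7 counts at 19.9 and 20.8. S100a10, the partner of annexin A2, had 17 and 8 counts and was the only one of 7 short S100 genes to reach 20 counts.

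Several of the most abundant members are cytoplasmic adaptors or regulators. Nrep, a neuronal protein linked to regeneration, encodes 68 residues and had 121 and 40 counts at 158 and 173 CPM per 100 coding nucleotides. Mllt11, of 90 residues, had 144 and 47 counts at 143 and 154. Hsbp1, which binds heat shock factor 1, had 84 and 40 counts at 98.5 and 155, and Atxn7l3b 68 and 27 at 62.7 and 82.0. Brk1, a subunit of the WAVE complex that starts actin branching, had 16 and 9 counts. Sh3bgrl3 had 45 and 7, Cdc42se2, an effector of the GTPase Cdc42, 36 and 5, and Ctnnbip1, an inhibitor of beta-catenin, 22 and 2.

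The remaining members named outside the lists were Zfp706, with 49 and 14 counts, and Fam195b, NCBP2-AS2 and Bbip1, a subunit of the BBSome of cilia, with 21 to 25 in sum.

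Snurf had 57 and 12 counts at 71.5 and 49.6 CPM per 100 coding nucleotides. Its table entry was a transcript of 216 nucleotides that is coding from end to end. Snrpn, which shares the start site shown above, had 163 and 39 counts at 61.1 and 48.2 on the same scale. Fragments of shared exons cannot be assigned to one of the 2 frames, so no order or likeness per coding length is read between them. Blcap overlaps the imprinted Nnat in RefSeq, where Nnat lies inside the Blcap gene. Blcap had 37 and 9 counts and Nnat 192 and 41. Among the 30 members with 50 or more counts, 15 had exactly the same pair of counts as another gene, such as Romo1 and Sumo2 with 41 and 9 each, and an equal pair by itself shows nothing about shared fragments. Of 67 members placed in RefSeq, 4 overlapped another gene with 20 or more counts: Snurf, Blcap, Gm4707 and Bbip1.

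Genes with provisional symbols, here those that begin with Gm and a number or end in Rik, were 15 of the 74. They include 2010107E04Rik, described above with the mitochondrial proteins, and not BC031181, which the plot by role counts among its provisional names in place of that gene. Of these 15, 9 are listed as pseudogenes by RefSeq, although the table gives them a protein-coding transcript. Gm8797 (ENSMUSG00000103034) had the most counts of all members, 234 and 68, at 634 and 607 CPM. RefSeq lists it as a pseudogene. Gm9844 had 75 and 33 counts on a transcript of 135 nucleotides, all of it coding, which is the coding length of the best transcript of thymosin beta 10, Tmsb10, with 171 and 70 counts. Gm10076, the shortest member at 78 coding nucleotides and also a pseudogene in RefSeq, had 31 and 9 counts. Gm12728, whose RefSeq synonym names it a copy of Ppia, had 81 and 13 counts on a transcript with no annotated coding sequence. Its coding isoforms had 33 and 9, and 30 and 4. Ppia, the peptidyl-prolyl isomerase cyclophilin A, had 246 and 68. How many of these counts are fragments shared with a parent gene was not tested. Without the 9 pseudogenes 65 members were left, and their median density was 33.3 CPM per 100 coding nucleotides against 33.7 for all 74.

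**Figure D3:**
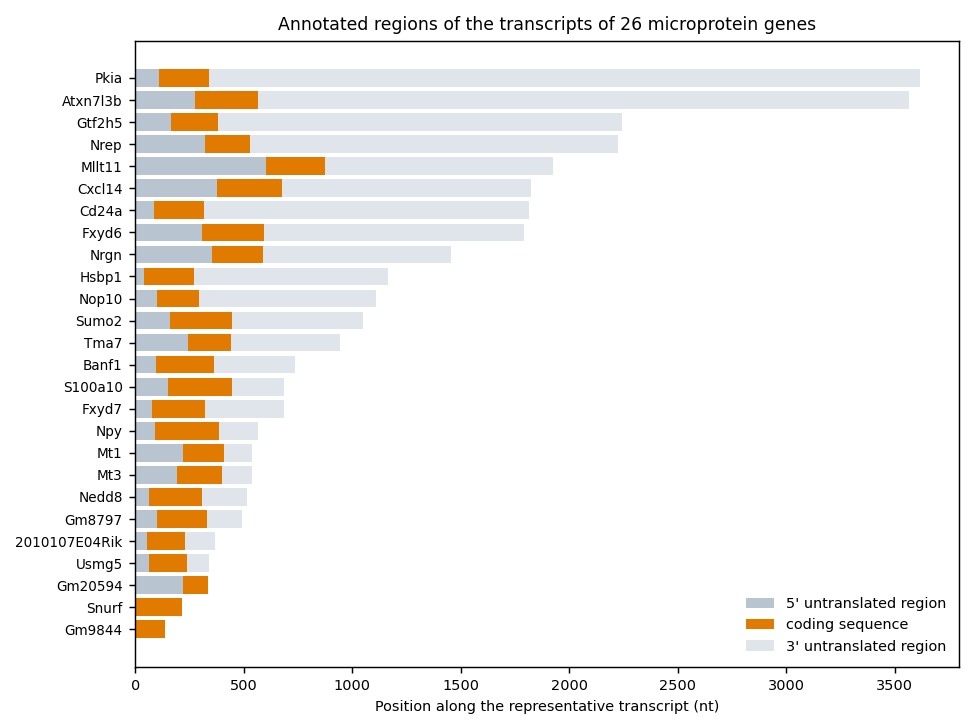
Annotated regions of the representative transcripts of the 26 members chosen by the rule for named genes, in nucleotides from the start of the transcript. The coding part is short beside the 3′ untranslated region in the longest transcripts, such as Pkia with 231 coding nucleotides in 3617, and fills the whole transcript in Snurf and Gm9844.

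The representative transcripts of the members had a median length of 1142 nucleotides. That was shorter than the 3185 of the coding genes tested, close to the 1116 of coding genes of 301 to 600 nucleotides, and longer than the 583 of the left-out families. Of the 74 transcripts, 71 contained an annotated coding sequence. In these the coding part made up a median of 20.3% of the transcript, from 4.36% in D430019H16Rik to 100% in Snurf, Gm9844 and Gm10126. Over the coding genes tested the median was 53.2%, and in the left-out families 36.3%. The 3′ untranslated region was longer than the coding sequence in 52 of the 71. Camk2n1 had 237 coding nucleotides in a transcript of 4444, and Sf3b5 had a 5′ untranslated region of 3280 nucleotides before a frame of 261. The length of the coding sequence is part of the rule, so its low share of the transcript is a description of these genes.

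The counts cover whole transcripts, so the place of a fragment within a transcript is not known, and isoforms are described by their counts alone. Among the members, 29 had more than 1 transcript, and their 73 other isoforms fell into 3 kinds. The 22 isoforms that kept the longest coding sequence carried a median of 86.5% of the count of the representative transcript. In the 17 isoforms with a shorter coding sequence the median was 62.0%, and in the 34 isoforms with none it was 40.0%. Each kind ranged widely, down to 0 in all 3 and up to 100%, 96% and 96%. The representative transcript is the one with the most counts, so no other isoform can exceed 100%. Isoforms of 1 gene share exons and differ in length. These values are therefore not independent, and they do not show where in a transcript the counts lie.

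**Figure D4:**
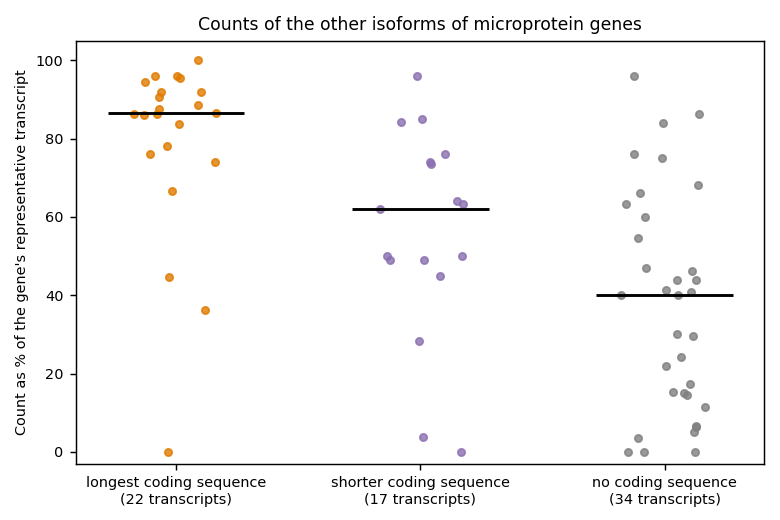
Count of each further isoform of a member, as a percentage of the count of that gene's representative transcript, by whether the isoform keeps the longest coding sequence, a shorter one or none; a point is a transcript and the bar the median. The medians are 86.5%, 62.0% and 40.0%.

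Mllt11 is an example. Its representative transcript of 1923 nucleotides had 144 and 47 counts, and an isoform of 624 nucleotides with the same frame of 273 kept 116 and 44. The 2 isoforms with no annotated coding sequence, of 430 and 350 nucleotides, had 7 and 0 counts in replicate 1 and none in replicate 2. Nrgn was alike: its transcript of 1453 nucleotides had 158 and 72 counts. The isoform with no annotated coding sequence, of 447 nucleotides, had 10 and 5. Whether such isoforms hold bases of the frame was not tested. For Nrep, 3 isoforms that differed in the 5′ untranslated region had 121, 115 and 112 counts in replicate 1 and 40, 33 and 34 in replicate 2. Pkia stood between these patterns. Its transcript of 3617 nucleotides had 76 and 20 counts, and an isoform of 631 nucleotides with the same frame had 50 and 14. For Tmem258, a subunit of the oligosaccharyltransferase, the coding transcript with 19 and 6 counts was matched by a non-coding isoform with 20 and 4. For Gm4707 the pseudogene transcript had 24 and 11 counts and both coding isoforms had none.

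The libraries were compared with a 2-sided exact binomial test per gene on the counts of the 2 libraries, adjusted by the Benjamini-Hochberg method over the 5436 genes whose mean count was 10 or more. It compares the reads of these libraries and not conditions. All 74 members passed that filter by the rule. Only 1 of the 74 differed at an adjusted p under 0.05, Gm20594. Over all genes tested 4.14% differed (3.99% higher and 0.147% lower in replicate 2), and over the 4392 coding genes 0.956%, so that the members' 1.35% is read as near the share of coding genes. At an unadjusted p under 0.05, 5 members differed (Gm20594, Nrgn, Gm8186, Hsbp1 and Gm12728), or 6.76%, against 9.6% of all genes and 5.62% of coding genes.

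Gm20594 (ENSMUSG00000096887), annotated as coding for 37 residues and called Mtrnr2l among the RefSeq synonyms, had 18 counts in replicate 1 and 99 in replicate 2, which is 48.8 and 884 CPM. The log2 ratio was 4.15 (counting SE 0.370, adjusted exact binomial p = 1.17e-41), the largest of the members. The mean of 466 ± 591 CPM (SD, n = 2) describes neither library. The mitochondrial large ribosomal RNA mt-Rnr2, which the synonym points to, was counted 635 times in replicate 1 and 2761 times in replicate 2, a log2 ratio of 3.84 (SE 0.063). Sharing of fragments between the 2 genes was not tested.

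**Figure D5:**
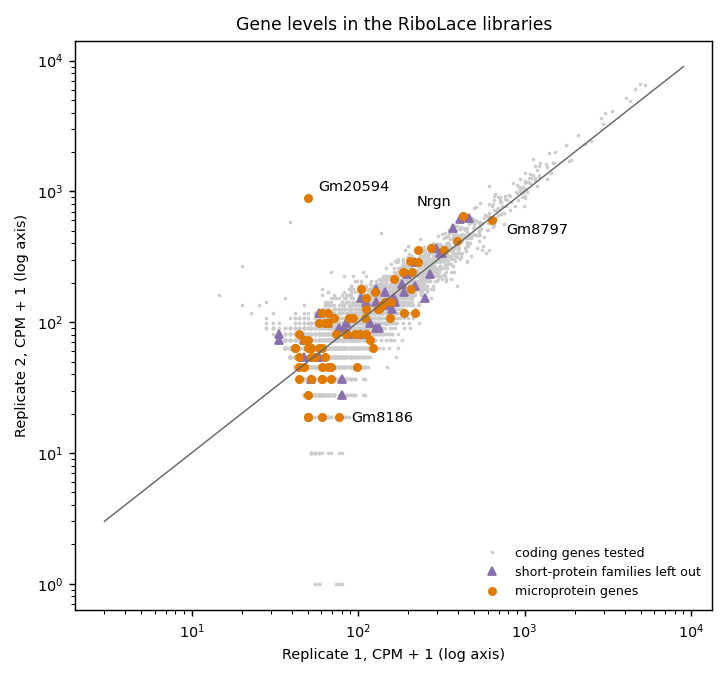
CPM + 1 of coding genes in replicate 2 against replicate 1 (both log axes), with the 74 microprotein genes in orange, the left-out short-protein families as triangles, other coding genes in grey and the line of equality. Gm20594 lies far above the line at 48.8 and 884 CPM, Nrgn and Gm8797 lie at the upper end close to it, and Gm8186 lies below it with 28 and 2 counts.

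Over all 74 members, Gm20594 included, the ratio of replicate 2 over replicate 1 was above 0 for 39 and below 0 for 35. The median log2 ratio of the members was 0.06, with the middle of the distribution from -0.45 to 0.45 (quartiles). Over all genes tested the median was 0.0041, over coding genes -0.02, and over the left-out families 0.12. With library totals in place of TMM every ratio falls, and the medians become -0.14 for the members and -0.20 for all genes.

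Of the 74 ratios, 68 lay between -1 and 1, 1 above and 5 below. The low ones were Gm8186 at -2.03, with 28 and 2 counts, Ctnnbip1 at -1.68, Smim14 and Gm10282 at -1.40 and Cdc42se2 at -1.11, and all 5 had 2 to 5 counts in replicate 2. None of these passed the adjusted threshold (adjusted exact binomial p from 0.386 for Gm8186 to 0.856 for Smim14 and Gm10282).

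Members that agreed most closely between the libraries were Pcp4, with a log2 ratio of -0.01 (counting SE 0.412), Usmg5 and Tma7 at -0.02 each (SE 0.475 and 0.672). Each standard error exceeds the ratio many times over. The members' log2(CPM + 1) had a Spearman rho of 0.728 and a Pearson r of 0.744 between the libraries, a description over 74 genes measured in the same 2 libraries. For coding genes within the members' range of counts rho was 0.772 and r 0.784. Without the 15 provisional symbols the members' values were 0.781 and 0.841.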

How the data were processed

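Ribosome-protected fragments of 25 to 35 nucleotides were sequenced from 2 replicates. The authors deposited 1 table of whole-number counts per transcript, not normalised, with region lengths in nucleotides. Per the submitters' processing notes, Trimmomatic 0.36, Bowtie2 2.2.6, SAMtools and build GRCm38.p4 were used; the annotation release and counting rule are not given in the sources used here. Isoforms share exons, so that their counts may hold the same fragments, and each gene took the values of 1 transcript, that with the most counts in sum, or the longer in a tie.

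CPM used TMM effective library sizes (edgeR 4.0.16; factors 1.07 and 0.931). Ratios are on log2(CPM + 1). With 1 group there was no contrast for edgeR's quasi-likelihood test, so libraries were compared with exact binomial tests (scipy 1.17.1). These were tried on simulated libraries with counting noise alone, which cannot show how the test behaves with differences between animals. Counting standard errors and intervals leave out differences between animals. Density divides by the longest coding sequence. For Gm12728, Gm4707 and Minos1 the representative transcript has no annotated coding sequence, so its counts are divided by the frame of another isoform.

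The members and lists were chosen with earlier results of these data known. Named genes were the 12 members highest by CPM, the 8 highest by density, those called, 2 per role list, those nearest the thresholds, the shortest and longest, and up to 5 with a pair of counts equal to another gene's; others were added after their values were seen. The 10 role lists held 44 members, and the 30 others were grouped after the values were seen. Symbols were matched to RefSeq (GRCm38.p6) for 67 members. The planned protein features were not computed. A comparison with 1 partner gene family is not reported here.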

Additional observations from a re-analysis of the deposited data

How the results depend on the processing

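No paired analysis was possible because both libraries belong to 1 group. The number of members fell from 74 to 30 at 50 summed counts, and the rule applied to a single library found 54 in replicate 1 and 14 in replicate 2, which has fewer counts. The median log2 ratio of the members, 0.06, became -0.14 with library totals, which lower every ratio, -0.12 with every gene that had a count in each library, and 0.30 where the mean count had to be 50 or more, which keeps 10 members. Summing isoforms, which may count a fragment more than once, gave 2 called members of 74 instead of 1, Gm20594 and Nrgn. At that setting 7.23% of all genes tested were called. The median density was then 26.8 instead of 33.7 CPM per 100 coding nucleotides, and the share of counts 0.671% instead of 0.913%. That share was 0.683% without provisional symbols and 0.773% without RefSeq pseudogenes, an alternative chosen after the data were seen; fewer genes are summed in both. Without provisional symbols the exact binomial test called 0 members, with 2 at an unadjusted p under 0.05, and edgeR's exact test with a preset coefficient of variation of 0.2 also called 0 of them. Where no cause is given it was not tested. The other 32 recomputed values stayed within the replicate spread, counting interval or factor of 1.5 used as the limit, and the density and share of single libraries ranged from 33.1 to 34.4 and from 0.908% to 0.918%. All 104 recomputed ratios of the 26 named members kept their side of the threshold and, for Gm20594, the direction. Some ratios near 0 of uncalled members changed sign, such as those of Banf1 and Mllt11 with library totals, while others kept it. The settings were library totals, the longest coding isoform, the preset coefficient of variation and coding genes alone. Summed isoforms, with which Nrgn was called, were not among them. For Gm20594 the adjusted exact-test p was 2.5e-10 under the preset coefficient of variation. Over all genes, 225 of the 5436 tested were called (4.14%). On the same genes the calls were 199 (3.66%) with library totals and 131 (2.41%) with the preset coefficient of variation. Other settings also changed the genes tested. The calls were 253 of 14467 (1.75%) with a count in each library and 75 of 764 (9.82%) with a mean of at least 50. They were 22 of 4392 (0.501%) for coding genes alone and 605 of 8366 (7.23%) with isoforms summed. Depth limits most members, since 40 had fewer than 10 counts in replicate 2.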

Other observations

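Promoter windows of 250 bases were found in RefSeq for 47 members, 57 windows in all. They held a median of 18 CG dinucleotides, against 6 over all 32851 windows of the table, which also include non-coding and tissue-specific genes. The core of the metal response element, TGCNCNC on either strand, was present in 57.9% of the members' windows and in 44.4% of all windows. These are counts of letters in windows set by annotated starts, with no test.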
